A study of Mus musculus with 8 samples.

Results

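The iron handling genes described here are 10 mouse genes whose products store, import, export or bind iron or haemoglobin. They were taken by symbol from a table of 23735 loci (Fth1, Ftl1, Tfrc, Slc11a1, Slc11a2, Steap4, Slc40a1, Cp, Lcn2 and Hp), and each matched 1 locus. RNA of peritoneal macrophages was sequenced in 8 libraries, in 4 groups of 2 libraries called A and B in the labels. The groups were LPS-treated KO, untreated KO, LPS-treated WT and untreated WT. KO cells came from MED1ΔMac mice, also labelled MED1-/-, which by that name lack Med1 in macrophages. WT cells came from MED1fl/fl mice, so the controls carried the floxed alleles too. All mice were C57BL/6J and 8 weeks old, and LPS, a bacterial endotoxin that TLR4 senses, was given at 50 ng/mL for 6 h. MED1 is a subunit of Mediator, the complex that links transcription factors to RNA polymerase. Which Cre line drove the deletion, and which exons it removes, is not given in the sources used here. Separate animals are not named for the libraries, so p-values measure only the spread between these libraries.

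Macrophages recycle iron from aged red cells and store it in ferritin, a shell built of heavy and light chains. Iron enters by way of transferrin and its receptor, is moved out of endosomes and phagosomes by transporters of the SLC11 family, and leaves through the exporter ferroportin. During infection macrophages are known to hold iron back from microbes, and lipocalin-2 binds the iron-carrying siderophores that bacteria secrete. Part of this control acts on mRNA: iron regulatory proteins bind a hairpin, the iron-responsive element (IRE), in iron-poor cells. At a 5′ end they block translation, while in the 3′ end of the transferrin receptor mRNA they protect the transcript from decay.

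The IRE sites are shown because their place, in the 5′ or the 3′ UTR, bears on whether they act on translation or on decay. A search with a strict pattern can miss an IRE of another form, so members without a match are not shown to lack one. The pattern searched was C, 5 bases, the loop CAGTGN and 5 bases that pair with the first 5, with G to T pairs allowed, on the transcript strand. Of 19854 genes with an annotated 5′ UTR, 33 held it there (0.166%), 3 of them members. Of 19915 genes with a 3′ UTR, 124 held it there (0.623%), and the 1 member among them, Tfrc, held 4 sites. The sites follow 5′ to 3′ with 6 flanking bases on each side and the loop in capitals, with mm9 positions.
Fth1, 5′ UTR, chr19:10057222-10057250, plus strand: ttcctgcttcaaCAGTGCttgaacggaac
Ftl1, 5′ UTR, chr7:52715149-52715177, minus strand: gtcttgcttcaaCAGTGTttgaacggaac
Slc40a1, 5′ UTR, chr1:45982310-45982338, minus strand: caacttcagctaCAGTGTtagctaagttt
Tfrc, 3′ UTR, chr16:32631305-32631333, plus strand: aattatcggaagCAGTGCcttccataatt
Tfrc, 3′ UTR, chr16:32631684-32631712, plus strand: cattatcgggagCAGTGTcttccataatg
Tfrc, 3′ UTR, chr16:32631749-32631777, plus strand: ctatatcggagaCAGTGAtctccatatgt
Tfrc, 3′ UTR, chr16:32631796-32631824, plus strand: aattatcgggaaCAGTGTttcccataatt

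The promoters of Lcn2 and Steap4 are shown because these members had the largest log2 changes with LPS in both genotypes. The change of Steap4 was not called in either genotype, as given below, and Steap4 was tested only because it was high with LPS. The 300 bases before each gene start were searched on both strands for the 10-base NF-kB consensus, the binding motif of a transcription factor that LPS activates. It occurred in 1980 of 22238 protein-coding genes (8.9%) and in 3 of the 10 members. Lcn2 held it at 1 position, 202 bases upstream of the start. Steap4 held it at 2 positions, 250 and 226 bases upstream, and Ftl1 at 1 position, 17 bases upstream. A match of letters is a description, not a binding site. The matches are in capitals, on the strand of the gene in mm9.
Lcn2, chr2:32243318-32243617, minus strand: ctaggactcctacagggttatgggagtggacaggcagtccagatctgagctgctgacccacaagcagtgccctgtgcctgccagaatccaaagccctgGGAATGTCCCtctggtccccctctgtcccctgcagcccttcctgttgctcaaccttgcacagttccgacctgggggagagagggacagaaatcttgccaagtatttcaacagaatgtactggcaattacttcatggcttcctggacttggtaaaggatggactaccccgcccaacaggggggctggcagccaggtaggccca
Steap4, chr5:7960172-7960471, plus strand: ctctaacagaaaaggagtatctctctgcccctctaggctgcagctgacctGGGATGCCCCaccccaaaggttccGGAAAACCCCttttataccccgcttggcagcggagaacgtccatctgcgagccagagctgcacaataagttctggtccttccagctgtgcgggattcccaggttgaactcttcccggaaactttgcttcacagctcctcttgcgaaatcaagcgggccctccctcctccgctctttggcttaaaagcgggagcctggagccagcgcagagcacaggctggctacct

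All levels are RPKM, which divide reads by transcript length and library size, so that levels can be compared between genes. The steps between low values gave an estimated 6.98 to 14.36 M mapped reads per library, which makes a single read worth 0.0696 to 0.143 RPKM on a transcript of 1 kb. The targeted gene Med1 (mm9 chromosome 11, 98013468 to 98054607, minus strand) was not called lower in KO. It averaged 22.3 ± 2.90 RPKM in LPS-treated KO, 20.5 ± 4.06 in untreated KO, 23.2 ± 2.23 in LPS-treated WT and 23.2 ± 2.2 in untreated WT (SD, n = 2 each), and these values cover the whole locus, so they do not check the loss of single exons. KO minus WT for Med1, averaged over treatments, was -0.12 (95% interval -0.47 to 0.24), and KO and WT are therefore used here as the labels give them. All 6 macrophage markers found reached at least 1 RPKM in every library, and their sums differed between the genotypes. The sum was 7156 and 6155 RPKM in LPS-treated KO against 19570 and 14950 RPKM in LPS-treated WT. Untreated it was 11310 and 17870 RPKM in KO against 31630 and 35310 RPKM in WT. The sum in KO thus lay below that in WT without overlap at both treatments, but most of each sum came from 1 marker. Of the other markers with LPS, Csf1r, Itgam and Mertk lay below WT in KO, Cd68 overlapped and Emr1 lay above. Csf1r stood at 339 and 249 RPKM in LPS-treated KO against 645 and 356 RPKM in LPS-treated WT. Emr1 stood at 454 and 454 RPKM against 450 and 424 RPKM. Untreated, each of these other markers overlapped between the genotypes. B cell markers summed to 1332 and 918 RPKM in LPS-treated KO against 576 and 378 RPKM in LPS-treated WT. Untreated they summed to 535 and 1586 RPKM in KO against 590 and 515 RPKM in WT. The 4 mast cell markers summed to 65.1, 162, 82.98 and 70.05 RPKM in the B libraries of LPS-treated KO, untreated KO, LPS-treated WT and untreated WT. In the A libraries of the same groups they summed to 2.96, 0.197, 23.5 and 0.689 RPKM, so library B lay above library A in 4 of 4 groups.

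LPS raised Lcn2 in both genotypes, by the largest log2 change of any member. It was the single member called in either genotype. Changes were fitted with limma on log2(RPKM + 1), and calls needed an adjusted p (Benjamini-Hochberg, over all loci tested) under 0.05. In KO 1 of 10 members was called, against 746 of 11272 loci (6.62%, with 3.31% higher and 3.31% lower). In WT 1 of 10 members was called, against 711 loci (6.31%, with 3.17% higher and 3.14% lower). At an unadjusted p under 0.05, 3 of 10 members passed in KO (Lcn2, Slc11a2 and Steap4), where 3292 of 11272 loci did. In WT 3 of 10 passed (Lcn2, Slc11a2 and Tfrc), where 3300 of 11272 loci did. Both shares are near those of all loci. With the letters A and B as a block, 3 of 10 members were called in KO, where 14.3% of loci were, and 1 of 10 in WT, where 16.1% were. Steap4 was among the 3 in KO. It passed the filter only through LPS-treated libraries, so its part in these counts carries no weight. The median log2 change of the members was 0.27 in KO and 0.48 in WT, against -0.28 and -0.25 over all loci in the same genotypes. Steap4 is part of these medians and of the gaps given next, with the same limit. Without it the middle change of the members was 0.24 in KO (that of Slc11a1) and 0.32 in WT (that of Fth1). With median-ratio scaling the medians of all loci moved by 0.27 in KO and 0.25 in WT, and the members' medians were then 0.57 and 0.77 above them. These gaps were 0.56 in KO and 0.73 in WT as deposited, and 0.35 and 0.41 with quantile normalization. In bulk RNA, fewer cells of a type and less RNA per cell cannot be told apart.

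**Figure D1:**
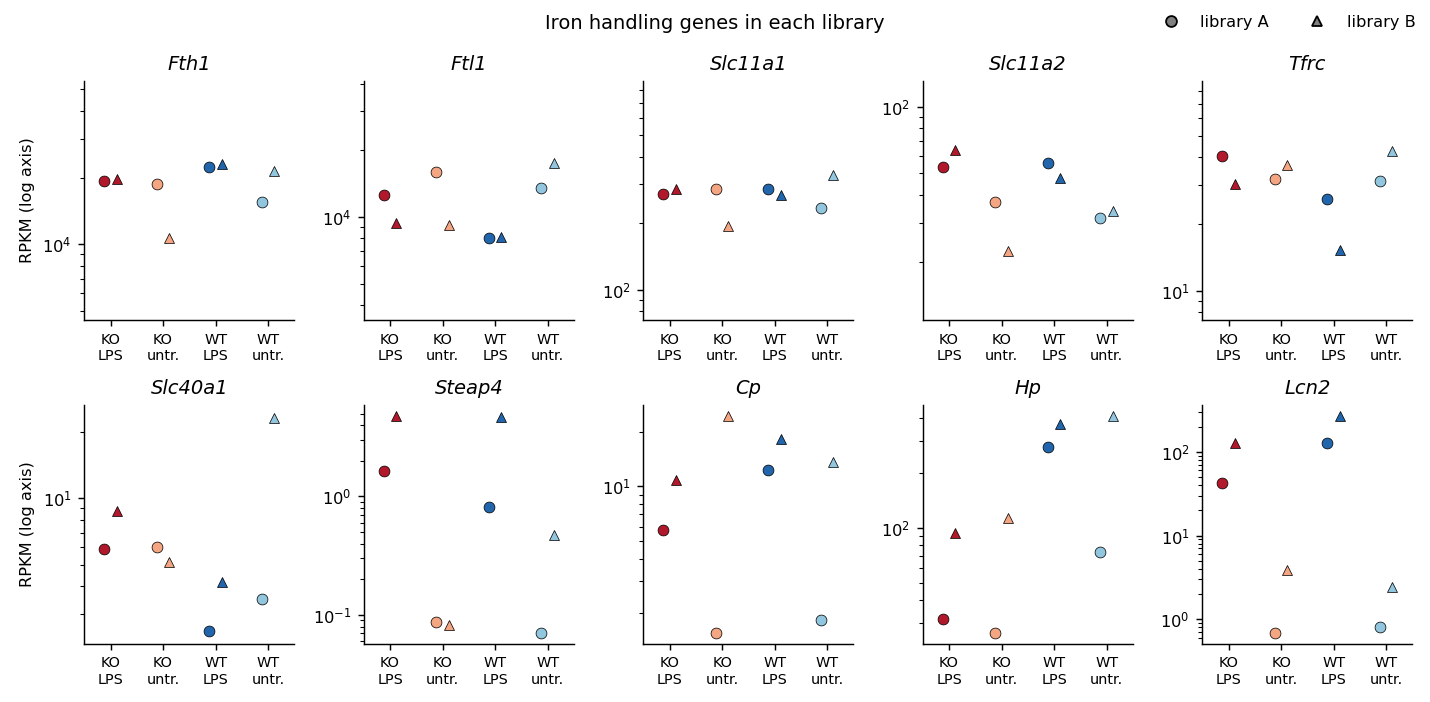
RPKM of the 10 iron handling genes in each library, on log axes with a separate scale for each gene; circles are A libraries, triangles are B libraries, and each pair of columns gives LPS-treated and untreated (untr.) cells of KO and then WT. The LPS-treated libraries of Lcn2 lie at 42.4 RPKM or more and the untreated ones at 3.90 RPKM or less, while in Hp and Cp the B library is above the A library in each group.

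Ferritin made up 3.76% to 6.96% of the RPKM sum of a library. Fth1 (XLOC_010170, mm9 chromosome 19, 10057193 to 10059582, plus strand), the heavy chain with the iron-oxidising activity, ranked 1 to 3 among all loci. Ftl1 (XLOC_019474, chromosome 7, 52713314 to 52715254, minus strand), the light chain that supports the iron core, ranked 2 to 6. Both genes have near copies without introns in mm9, at 90% identity or more over at least 80% of the coding length. Ftl1 has 6 of them, up to 99.6% identical, and Fth1 has 1 at 91%. The counting of reads shared with such copies is not stated, so these levels are uncertain.

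Fth1 stood at 19389 and 19671.5 RPKM in LPS-treated KO libraries A and B, against 18768 and 10721.5 RPKM in untreated KO. WT libraries had 22240.0 and 23138 RPKM with LPS, against 15551 and 21357 RPKM untreated. The LPS-treated libraries lay above the untreated ones in both genotypes, without overlap, and no call was made (log2 changes of 0.46 in KO and 0.32 in WT). Ftl1 stood at 12525 and 9392 RPKM in LPS-treated KO, against 15942 and 9196 RPKM in untreated KO. The WT values were 8017 and 8102 RPKM with LPS, against 13533 and 17531 RPKM untreated. The KO groups overlapped, whereas both LPS-treated WT libraries lay below both untreated WT libraries. The log2 change of Ftl1 was -0.93 in WT (SE 0.42, limma adjusted p = 0.19). In KO it was -0.16 as deposited and 0.15 with median-ratio scaling.

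The ratio of heavy to light chain transcripts was higher after LPS in all 4 treated libraries than in any untreated one. This ratio was chosen after its values were seen, so its p is not independent evidence. As a ratio within a library it does not depend on the scaling between libraries. It was 1.55 and 2.09 in LPS-treated KO libraries A and B, against 1.18 and 1.17 in untreated KO. In WT it was 2.77 and 2.86 with LPS, against 1.15 and 1.22 untreated. The mean log2 ratio was 1.17 ± 0.41 with LPS and 0.24 ± 0.04 without (SD, n = 4 each), a difference of 0.94 or 1.91-fold. An exact two-sided permutation test over libraries gave p = 0.0286, the smallest p that 4 against 4 libraries allow. The test shuffled libraries across genotypes and letters, so it ignores genotype and any pairing by letter. The difference was 0.62 in KO (1.54-fold) and 1.25 in WT (2.38-fold), and was not tested within a genotype, with 2 libraries against 2. It was 0.83 among A libraries and 1.04 among B libraries. The ratio shows unequal change of the 2 chains, not which of them changed, and both carry the IRE pattern in the 5′ UTR.

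**Figure D2:**
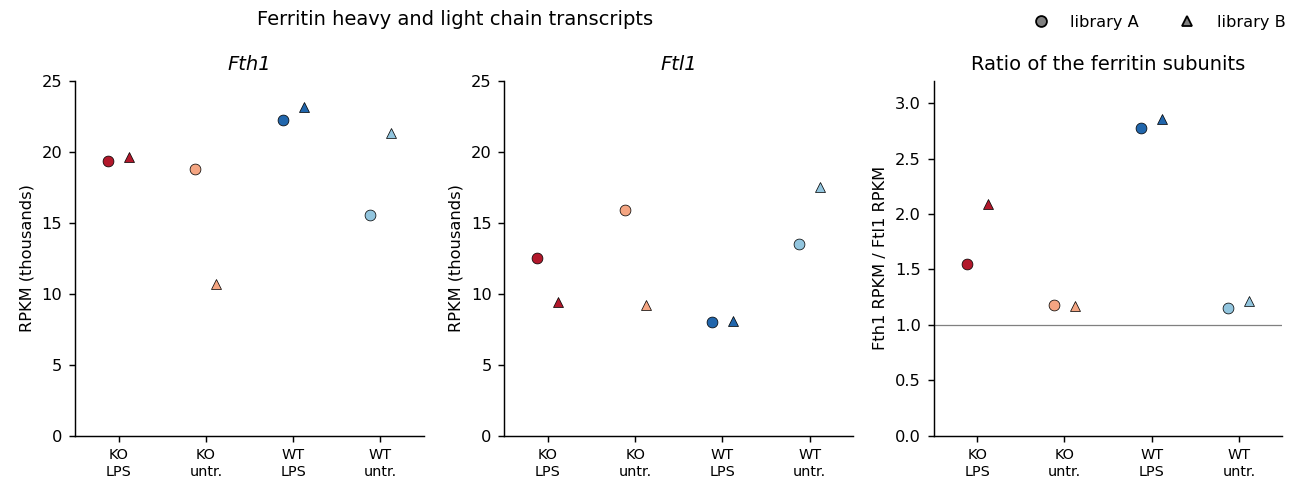
Ferritin transcripts in each library: Fth1 and Ftl1 in kilo-RPKM, and the ratio of Fth1 to Ftl1, with a line at 1; circles are A libraries and triangles B libraries. The ratio is 1.55 to 2.86 in LPS-treated libraries and 1.15 to 1.22 in untreated ones.

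Of the importers, none was called, and Slc11a2 and Steap4 lay higher with LPS in both genotypes. Slc11a2 (XLOC_007542, mm9 chromosome 15, 100218329 to 100255503, minus strand), which encodes the endosomal iron transporter DMT1, overlaps Gm5475 on the other strand. The strand of the reads is not stated, so reads of such partners cannot be told apart. It stood at 53.4 and 63.8 RPKM in LPS-treated KO, against 37.0 and 22.3 RPKM in untreated KO. Among WT libraries the level was 55.6 and 47.8 RPKM with LPS, against 31.5 and 33.7 RPKM untreated. All 4 LPS-treated libraries lay above all 4 untreated ones. The log2 change was 0.99 in KO (SE 0.26, limma adjusted p = 0.0649) and 0.65 in WT (SE 0.26, adjusted p = 0.154). Blocking on the library letter gave an adjusted p of 0.0432 in KO, and without untreated KO library A it was 0.0376.

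Slc11a1 (XLOC_000193, mm9 chromosome 1, 74421777 to 74432636, plus strand) encodes NRAMP1, which pumps divalent metals out of the phagosome. It was the more abundant of the SLC11 pair, at 271 and 286 RPKM in LPS-treated KO against 285 and 195 RPKM in untreated KO. In WT it stood at 287 and 269 RPKM with LPS, against 234 and 329 RPKM untreated. The groups overlapped in both genotypes, with log2 changes of 0.24 in KO (95% interval -0.39 to 0.86) and 0.00 in WT (-0.62 to 0.63).

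Tfrc (XLOC_007762, mm9 chromosome 16, 32609006 to 32632880, plus strand), the transferrin receptor that carries the 4 IRE sites shown above, stood at 40.8 and 30.4 RPKM in LPS-treated KO, against 32.1 and 37.0 RPKM in untreated KO. WT libraries had 26.1 and 15.3 RPKM with LPS, against 31.4 and 42.7 RPKM untreated. The KO groups overlapped, and both LPS-treated WT libraries lay below both untreated WT libraries. The log2 change was 0.03 in KO (SE 0.30) and -0.84 in WT (SE 0.30, limma adjusted p = 0.121). The adjusted p in WT was 0.038 without LPS-treated WT library A, where the change was -1.21, and the change was -0.48 without library B. The difference of responses, KO minus WT, was 0.87 (SE 0.42, 95% interval -0.12 to 1.87, adjusted p = 0.9999).

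Steap4 (XLOC_015380, mm9 chromosome 5, 7960472 to 7982213, plus strand) encodes a metalloreductase that reduces ferric iron and cupric copper. It was the least abundant member, at 1.63 and 4.81 RPKM in LPS-treated KO against 0.0870 and 0.0824 RPKM in untreated KO. The WT values were 0.808 and 4.66 RPKM with LPS, against 0.0707 and 0.473 RPKM untreated. All 4 LPS-treated libraries lay above all 4 untreated ones, and library B stood above library A after LPS in both genotypes. These values rest on an estimated 53 and 128 reads in LPS-treated KO against 4 and 2 in untreated KO. The estimates in WT are 28 and 102 reads with LPS against 2 and 16 untreated.

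On the log2(RPKM + 1) scale, which understates the change of a gene this low, the LPS difference of Steap4 was 1.85 in KO (SE 0.58, limma adjusted p = 0.0933) and 1.35 in WT (SE 0.58, adjusted p = 0.171), neither of them called. With a pseudocount of 0.1 the values were 3.98 and 2.73, still uncalled. Steap4 reached 1 RPKM only in LPS-treated libraries, so it was tested only because it was high there, and the calls that follow carry no weight. Blocking on the letter gave an adjusted p of 0.0287 in KO. Without 1 of the LPS-treated WT libraries it was 0.041 or 0.0423 in KO. Without LPS-treated WT library A the change in WT was 2.17 (adjusted p = 0.0364), and without library B it was 0.53 (adjusted p = 0.691).

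On the export side, neither member was called. Slc40a1 (XLOC_000768, mm9 chromosome 1, 45964915 to 45982439, minus strand) encodes ferroportin, the iron exporter of macrophages. It stood at 5.89 and 8.71 RPKM in LPS-treated KO, against 6.05 and 5.18 RPKM in untreated KO. Among WT libraries the level was 2.52 and 4.18 RPKM with LPS, against 3.498 and 23.1 RPKM untreated. A single library, untreated WT B, stood apart above all others. The log2 change with LPS was 0.31 in KO (SE 0.69, limma adjusted p = 0.78) and -1.28 in WT (SE 0.69, adjusted p = 0.253). Without untreated WT library B the change in WT was -0.07, and without untreated WT library A it was -2.49 (adjusted p = 0.0681).

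Untreated WT library B also held red cell transcripts. Of 6 erythroid symbols used 5 were found, Slc4a1 among them was at 0 in all libraries, and the sum of the list was 68.7 RPKM there against at most 0.21 RPKM in the other libraries. The part of red cells in the Slc40a1 level was not tested.

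Cp (XLOC_012875, mm9 chromosome 3, 19857054 to 19909145, plus strand) encodes ceruloplasmin, the copper ferroxidase that helps load exported iron onto transferrin. Its locus overlaps Hps3 on the other strand, with the same limit on strand. It stood at 5.77 and 10.9 RPKM in LPS-treated KO, against 1.56 and 24.6 RPKM in untreated KO. In WT it stood at 12.3 and 18.2 RPKM with LPS, against 1.83 and 13.6 RPKM untreated. Library B was above library A in 4 of 4 groups, by log2 3.32 in untreated KO and 2.37 in untreated WT, and the treatments overlapped. The log2 change with LPS was 0.15 in KO (95% interval -2.45 to 2.74) and 1.31 in WT (-1.28 to 3.91). Without 1 of the untreated KO libraries it was -1.51 (A) or 1.81 (B), and without 1 of the untreated WT libraries it was 0.13 (A) or 2.50 (B). The lowest and the highest Cp value fell in the same libraries, untreated KO A and B, as the lowest and the highest sum of mast cell markers, 0.197 and 162 RPKM. The same holds for the sums of the T cell markers (2.46 and 27.5 RPKM) and of the large peritoneal macrophage markers (31.3 and 131.5 RPKM). The low of the last sum rested on Timd4, at 1.13 RPKM in untreated KO library A. Gata6 (7.24 RPKM there) and Icam2 (22.9 RPKM there) were lower in every LPS-treated library. The part of mast cells, T cells and large peritoneal macrophages in the Cp level was not tested.

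**Figure D3:**
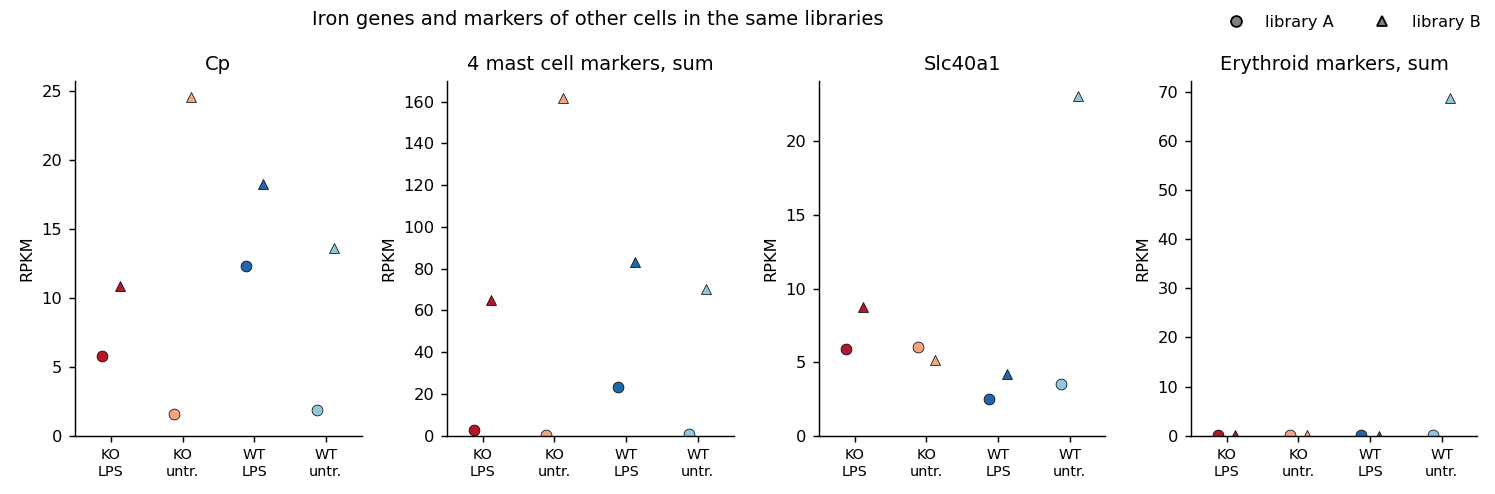
RPKM in each library of Cp beside the sum of 4 mast cell markers (Cpa3, Cma1, Mcpt4 and Tpsb2), and of Slc40a1 beside the sum of erythroid markers, on linear axes; circles are A libraries and triangles B libraries. Within each group the B library lies above the A library in the first 2 panels, and untreated WT library B stands alone at 23.1 RPKM of Slc40a1 and 68.7 RPKM of erythroid markers.

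Among secreted binders, Lcn2 rose with LPS in both genotypes. Lcn2 (XLOC_012019, mm9 chromosome 2, 32240153 to 32243317, minus strand), whose promoter is shown above, stood at 42.4 and 129 RPKM in LPS-treated KO, against 0.687 and 3.90 RPKM in untreated KO. WT libraries had 126 and 271 RPKM with LPS, against 0.798 and 2.40 RPKM untreated. Every LPS-treated library lay above every untreated one, and library B lay above library A in 4 of 4 groups. The means were 85.7 ± 61.3 RPKM with LPS and 2.29 ± 2.27 RPKM without in KO (SD, n = 2 each), a ratio of 37.4. In WT they were 198 ± 102 RPKM with LPS and 1.60 ± 1.13 RPKM without, a ratio of 124.

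The log2 change of Lcn2 was 4.71 in KO (SE 0.71, limma adjusted p = 0.0165) and 6.23 in WT (SE 0.71, adjusted p = 0.0099). Without any 1 library the change stayed between 3.92 and 5.50 in KO and between 5.69 and 6.78 in WT. The call in KO was lost without untreated KO library A (adjusted p = 0.0507), untreated KO library B (0.0549) or LPS-treated KO library B (0.124). In WT it was lost without untreated WT library A (0.0681) or LPS-treated WT library B (0.0777). Over all alternatives the adjusted p ran from 0.000249 to 0.124 in KO and from 0.000109 to 0.0777 in WT. The KO minus WT difference of these responses was -1.52 (SE 1.0, 95% interval -3.86 to 0.81, adjusted p = 0.9999), so a difference between genotypes was not detectable.

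Hp (XLOC_021160, mm9 chromosome 8, 112099030 to 112103072, minus strand) encodes haptoglobin, which binds free haemoglobin. It stood at 31.7 and 93.3 RPKM in LPS-treated KO, against 26.5 and 113 RPKM in untreated KO. The WT values were 278 and 368 RPKM with LPS, against 73.2 and 412 RPKM untreated. Library B was above library A in 4 of 4 groups, and the treatments overlapped in both genotypes. The log2 change with LPS was -0.01 in KO (SE 0.95) and 0.88 in WT (SE 0.95), and in KO it turned to 0.29 with median-ratio scaling. In WT it was -0.36 without untreated library A and 2.11 without untreated library B.

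Lcn2 and Hp are also granule genes of neutrophils. Among 7 neutrophil markers found of 8 symbols, Ngp was at 0 in all libraries, S100a9 at 0 to 5.63 RPKM and Retnlg at 0 to 7.45 RPKM, while Csf3r lay at 41.4 to 139 RPKM. Ltf, another granule gene, lay at 0 to 0.143 RPKM. S100a8 stood at 69.4 and 121 RPKM in LPS-treated KO against 43.3 and 40.7 RPKM in untreated KO, and at 107 and 106 RPKM in LPS-treated WT against 39.8 and 60.6 RPKM in untreated WT. Camp, a granule gene, stood at 9.83 and 12.03 RPKM in LPS-treated KO against 0 and 0.609 RPKM in untreated KO, and at 13.0 and 27.5 RPKM in LPS-treated WT against 0 and 3.72 RPKM in untreated WT. S100a8 and Camp were thus higher with LPS in both genotypes without overlap, as Lcn2 was. Mmp8 was lower, at 149 and 41.9 RPKM in LPS-treated KO against 371 and 217 RPKM in untreated KO, and at 119 and 36.1 RPKM in LPS-treated WT against 434 and 226 RPKM in untreated WT. The sum of the list was 291 and 245 RPKM in LPS-treated KO against 456 and 374.5 RPKM in untreated KO. In WT it was 380 and 272 RPKM with LPS against 532 and 418 RPKM untreated. The part of neutrophils in the levels of Lcn2 and Hp was not tested.

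**Figure D4:**
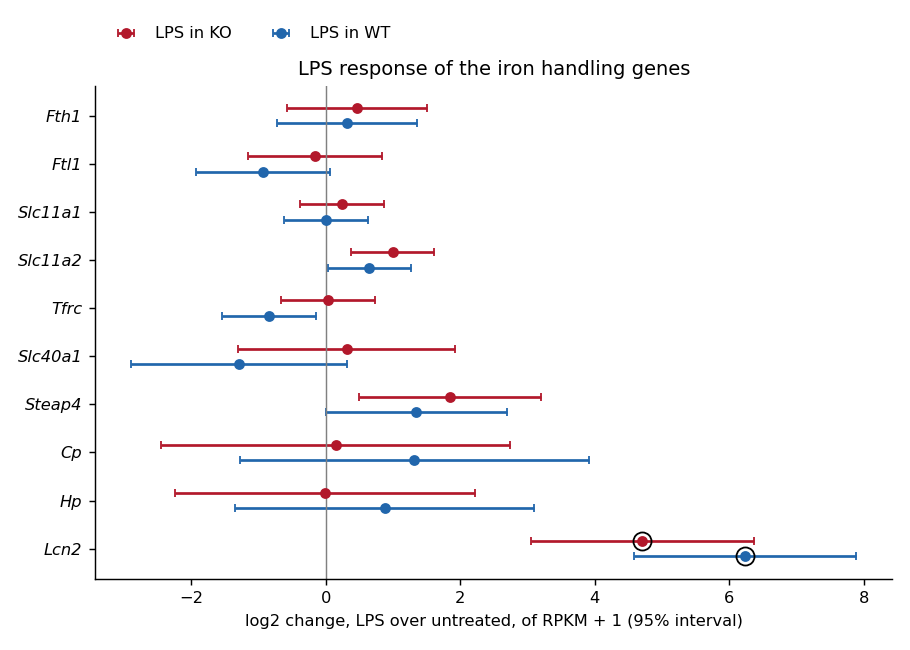
Change with LPS in KO (red) and WT (blue) of the 10 iron handling genes, as log2 differences of RPKM + 1 with 95% intervals from limma; rings mark called changes. The ringed points are those of Lcn2, at 4.71 in KO and 6.23 in WT.

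By range, 4 of 10 members lay higher in both LPS-treated libraries than in both untreated ones in KO, where 15.1% of all loci did, and 0 lay lower, where 48% of all loci did. The 4 were Lcn2, Slc11a2, Fth1 and Steap4. Steap4 passed the filter only through LPS-treated libraries, so it carries no weight in this count or in that of WT. In WT the same 4 lay higher, where 18.2% of all loci did, and Tfrc and Ftl1 lay lower, where 45.9% did. With 2 libraries per group, a lack of overlap alone is no call.

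Whether loss of MED1 shifts iron handling was asked by setting KO against WT. No member was called in any comparison of the genotypes. With LPS limma called 0 of 10 members, against 1 of 11272 loci (0.00887%, 0% higher and 0.00887% lower). Untreated it called 0 of 10, against 3 loci (0.0266%, with 0.00887% higher and 0.0177% lower). Averaged over treatments it called 0 of 10, against 4 loci (0.0355%, with 0.00887% higher and 0.0266% lower). The difference between the genotypes' responses to LPS was called in 0 of 10, against 4 loci (0.0355%, with 0.0177% in each direction). At an unadjusted p under 0.05 limma gave 2 members with LPS (Tfrc and Hp), 0 untreated, 1 averaged (Hp) and 0 for the difference of responses. Of 11272 loci, 498 passed with LPS, 94 untreated, 472 averaged and 184 for the difference of responses.

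Hp had the largest genotype difference of the members. Its values of 31.7, 93.3, 26.5 and 113 RPKM in KO each lay below the WT library of the same treatment and letter, in 4 of 4 pairs, against 278, 368, 73.2 and 412 RPKM in WT. With LPS the groups did not overlap, and untreated they did. KO minus WT with LPS came to a log2 value of -2.53 (SE 0.95, 95% interval -4.76 to -0.31, unadjusted p = 0.0308, limma adjusted p = 1). Untreated it was -1.64 (95% interval -3.87 to 0.58). Averaged over treatments it was -2.09 (SE 0.67, 95% interval -3.66 to -0.52, limma adjusted p = 0.9991). Blocking on the letter gave an adjusted p of 0.376 for the average, and without any 1 library the average stayed between -2.71 and -1.47. The difference with LPS ran from -3.30 to -1.77 when 1 library was left out. The untreated one was -0.41 without untreated WT library B and -2.88 without untreated WT library A. It was -0.62 without untreated KO library A and -2.67 without untreated KO library B. The summed macrophage markers lay lower in KO in the same libraries, mostly through 1 marker while the others were mixed, as given above. Their part in the Hp difference was not tested.

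Tfrc averaged 35.6 ± 7.29 RPKM in LPS-treated KO and 20.7 ± 7.61 RPKM in LPS-treated WT (SD, n = 2 each), with no overlap. KO minus WT came to a log2 value of 0.79 (SE 0.30, 95% interval 0.08 to 1.49, unadjusted p = 0.0327, limma adjusted p = 1). Without LPS-treated WT library B it was 0.42, and without LPS-treated WT library A it was 1.15. In LPS-treated KO the summed macrophage markers were lower, mostly through 1 marker, and the B cell markers were higher. Their part in the Tfrc difference was not tested. Untreated the Tfrc difference was -0.09 (95% interval -0.79 to 0.62). Lcn2 averaged 85.7 ± 61.3 RPKM in LPS-treated KO and 198 ± 102 RPKM in LPS-treated WT, a difference of -1.31 (95% interval -2.96 to 0.35). The libraries of Lcn2 overlapped, with 129 RPKM in KO library B and 126 RPKM in WT library A.

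Ferroportin transcripts averaged 7.30 ± 1.99 RPKM in LPS-treated KO and 3.35 ± 1.17 RPKM in LPS-treated WT (SD, n = 2 each), with no overlap and a Slc40a1 difference of 0.94 (95% interval -0.67 to 2.54). Untreated it was -0.66, with 0.55 when untreated WT library B was left out and -1.87 when untreated WT library A was. Averaged over treatments it was 0.14, with 0.75 without untreated WT library B and -0.46 without untreated WT library A. The difference of the LPS responses was 1.59 (SE 0.97, 95% interval -0.68 to 3.87), with 0.38 without untreated WT library B and 2.80 without untreated WT library A. With LPS, 3 members lay higher in both KO libraries (Slc40a1, Tfrc and Ftl1), where 18.7% of all loci did, and 3 lay lower (Fth1, Hp and Cp), where 11.7% did. Fth1 with LPS differed by -0.22 as deposited, and by 0.30 with quantile normalization. That method sets a value by its rank alone, and Fth1 ranked 1 and 2 in LPS-treated KO and 2 and 2 in LPS-treated WT. Untreated, all 10 members overlapped between the genotypes, where 17.8% of all loci lay higher in KO and 5.86% lower. With LPS they ran from -4.76 to -0.31 for Hp and from -0.62 to 0.62 for Slc11a1.

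**Figure D5:**
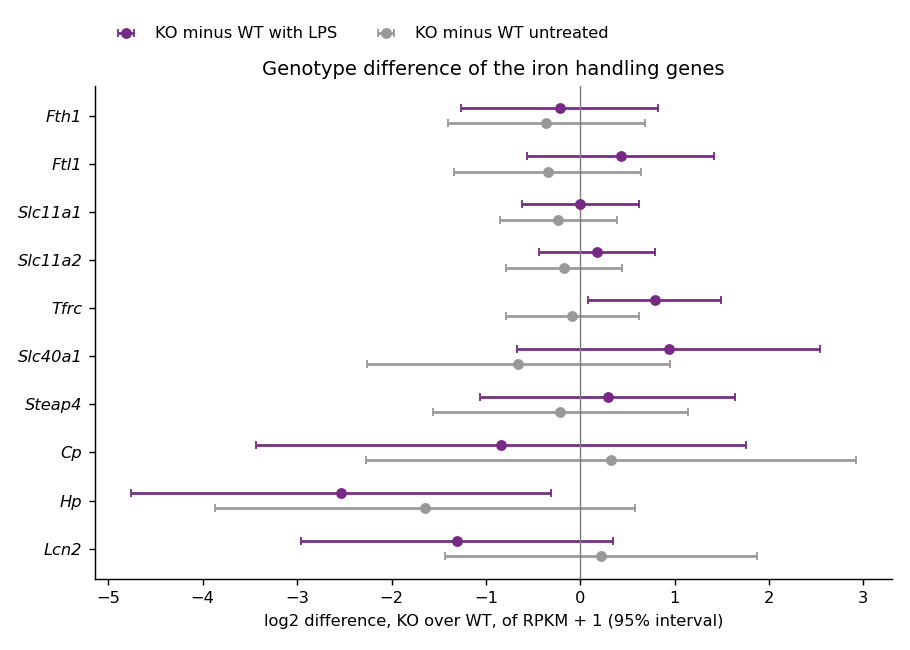
KO minus WT difference of the 10 iron handling genes with LPS (purple) and untreated (grey), as log2 differences of RPKM + 1 with 95% intervals from limma; no difference was called. With LPS the intervals of Hp (-4.76 to -0.31) and Tfrc (0.08 to 1.49) do not reach 0 before adjustment.

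The genes whose pattern over the 8 libraries lay nearest to a member, by Euclidean distance of centred log2(RPKM + 1), were also read out. Nearest to Lcn2 were the apoptosis inhibitor Bcl2a1a (distance 1.98), the uridine phosphorylase Upp1 (2.01) and the activin subunit Inhba (2.03). Nearest to Slc40a1 were the glutathione transferase Gsta3 (0.735), the zinc importer Slc39a4 (0.979) and the phospholipid transporter Abcb4 (1.02). Gsta3 shared the high value in untreated WT library B, at 96 RPKM there against 18 to 53.9 RPKM in the other libraries. Nearest to Hp were Ly6i (1.79), the collagen gene Col1a2 (2.32) and Smpdl3b (2.38).

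Beyond the 10 members, 61 other iron genes were listed in 5 groups and 48 of them passed the filter of at least 1 RPKM in at least 2 libraries. With LPS 2 of 48 were called higher and 1 lower in KO, with a median log2 change of -0.36, against 6.62% of loci called and a median of -0.28 over all loci. In WT 2 of 48 were called higher and 2 lower, with a median of -0.46, against 6.31% of loci and a median of -0.25. These shares are near those of all loci. When the letter was a block, the counts were 3 higher and 10 lower in KO, where 5.25% of all loci were higher and 9.04% lower. In WT they were 4 higher and 11 lower, where 5.71% of all loci were higher and 10.4% lower. Bmp6, counted higher in KO with and without the block, reached 1 RPKM only in LPS-treated KO libraries. Slc22a17, counted lower in KO with the block, reached it only in untreated libraries (limma adjusted p = 0.053, and 0.0312 with the block). Both passed the filter only where they were high, so they carry no weight in these counts. In the comparisons of the genotypes limma called 0 of 48.

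Of 14 other transferrin, import and export genes, 8 were tested, and Slc39a14 rose in both genotypes. Slc39a14, a zinc and iron importer of the plasma membrane, stood at 29.5 and 53.9 RPKM in LPS-treated KO, against 7.27 and 4.05 RPKM in untreated KO. Among WT libraries the level was 39.0 and 66.0 RPKM with LPS, against 5.60 and 6.82 RPKM untreated. All LPS-treated libraries lay above all untreated ones, and the log2 change was 2.66 in KO (limma adjusted p = 0.0161) and 2.85 in WT (adjusted p = 0.0152). The call in KO was lost without untreated KO library B (0.0748) or LPS-treated KO library B (0.125). The call in WT was lost without untreated WT library A (0.0951) or B (0.0588) or LPS-treated WT library B (0.0964).

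Hfe, which encodes the hemochromatosis protein that binds the transferrin receptor, stood at 2.28 and 1.14 RPKM in LPS-treated KO, against 11.4 and 25.2 RPKM in untreated KO. In WT it stood at 5.12 and 1.21 RPKM with LPS, against 16.7 and 13.1 RPKM untreated. It was lower with LPS in both genotypes without overlap, and fell in KO by 2.77 on the log2 scale (limma adjusted p = 0.0323). The change in WT was -2.10 (adjusted p = 0.0621, and 0.039 with the letter block). The call in KO was lost without a filter (0.0736) and without any of 5 libraries: untreated WT A (0.0514) or B (0.0519), LPS-treated KO A (0.0848) or B (0.218), or untreated KO B (0.125).

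Of 8 iron regulatory and routing genes, 7 were tested. Fbxl5, the iron-sensing subunit that marks an iron regulatory protein for degradation, stood at 52.2 and 91.1 RPKM in LPS-treated KO against 40.9 and 54.3 RPKM in untreated KO, which overlapped. WT libraries had 146 and 163 RPKM with LPS, against 47.6 and 49.9 RPKM untreated, without overlap. Its log2 change was 0.54 in KO (limma adjusted p = 0.247) and 1.64 in WT (adjusted p = 0.0243), and the difference of the responses was -1.10 (SE 0.41, 95% interval -2.05 to -0.15, adjusted p = 0.9999). The call in WT was lost without a filter (0.0531) and without untreated WT library A (0.146) or B (0.105) or LPS-treated WT library B (0.142).

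Mcoln1, the lysosomal cation channel that passes iron, stood at 21.9 and 15.5 RPKM in LPS-treated KO against 44.2 and 29.7 RPKM in untreated KO. The WT values were 17.8 and 9.50 RPKM with LPS, against 39.7 and 39.8 RPKM untreated. The groups did not overlap in either genotype, and it fell by 1.53 on the log2 scale in WT (limma adjusted p = 0.0418), with -0.94 in KO (adjusted p = 0.122, and 0.0398 with the letter block). The call in WT was lost without a filter (0.0786), with only the WT groups (0.0656), without untreated WT library A (0.2) or B (0.164), LPS-treated WT library B (0.2), or LPS-treated KO library A (0.0627) or B (0.0625).

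Of 6 genes of hepcidin and its regulation, 2 were tested. Bmp6, a growth factor that induces hepcidin in the liver, had a log2 change of 1.08 in KO (limma adjusted p = 0.0483), with 1.09 and 1.62 RPKM in LPS-treated KO against 0.0579 and 0.164 RPKM in untreated KO. In WT it stood at 0.371 and 0.357 RPKM with LPS against 0.0471 and 0.157 RPKM untreated (log2 change 0.31, adjusted p = 0.43). It reached 1 RPKM only in the LPS-treated KO libraries, so it was tested only because it was high there, and its call carries no weight. Neo1, a receptor that binds the BMP co-receptor hemojuvelin, fell in WT by 1.65 (adjusted p = 0.0417), with 3.17 and 1.69 RPKM with LPS against 11.9 and 7.51 RPKM untreated. In KO it stood at 3.16 and 2.09 RPKM with LPS against 7.60 and 4.45 RPKM untreated (-0.93, adjusted p = 0.14, and 0.0311 with the letter block). The call of Bmp6 was lost with a pseudocount of 0.1 (0.0782) and with only the KO groups (0.0826). That of Neo1 was lost with median-ratio scaling (0.0513), quantile normalization (0.059), no filter (0.0889) and only the WT groups (0.0655). The call of Bmp6 was also lost without untreated KO library A (0.0936) or B (0.109), untreated WT library A (0.0866) or B (0.088), or LPS-treated WT library B (0.0514). Without either LPS-treated KO library Bmp6 was not tested, since it missed the filter. The call of Neo1 was also lost without untreated WT library A (0.229) or B (0.1), LPS-treated WT library B (0.223), or LPS-treated KO library A (0.0656) or B (0.0648). Hamp, the hepcidin gene, was at 0 in all libraries but the untreated WT ones, at 0.540 and 0.451 RPKM.

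Genes of haem turnover were not called. Of 14 genes of haem uptake and breakdown, 12 were tested and 0 passed in limma in either genotype. When the letter was a block, 3 passed downward in each genotype, where 9.04% of all loci did in KO and 10.4% in WT. The largest differences were those of Lrp1, the receptor for haem bound to hemopexin, in both genotypes, followed by Blvra, a biliverdin reductase, in WT and Hmox1 in KO. The log2 difference of Lrp1 was -1.51 in KO (adjusted p = 0.147, and 0.0105 with the letter block) and -1.84 in WT (0.0992, and 0.00526 with the block). Blvra differed by -0.92 in KO (adjusted p = 0.199, and 0.0473 with the block) and -1.49 in WT (0.0773, and 0.0106 with the block). Hmox1, the haem-degrading oxygenase, was picked out after its values were seen. It stood at 1822 and 1734 RPKM in LPS-treated KO, against 1258 and 368 RPKM in untreated KO. Among WT libraries the level was 1061 and 1089 RPKM with LPS, against 904 and 1554 RPKM untreated. Its KO groups did not overlap and its WT groups did, with log2 changes of 1.38 in KO (adjusted p = 0.15) and -0.14 in WT.

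All 19 mitochondrial iron, haem and iron-sulfur cluster genes were tested, and 17 of 19 had lower values with LPS in each genotype, where the median of all loci was lower too. Limma called 0 of them, and the list median was -0.49 in KO and -0.56 in WT. With median-ratio scaling 15 were lower in KO and 13 in WT, and with quantile normalization 13 and 14. Blocking on the letter gave 2 lower calls in KO, where 9.04% of all loci were lower. In WT it gave 4 lower and 1 higher, where 10.4% of all loci were lower and 5.71% higher. The largest differences were those of Urod, a haem synthesis enzyme, and Cisd1, an iron-sulfur protein of the outer membrane. Urod differed by -1.45 in KO (limma adjusted p = 0.0855, and 0.025 with the block) and -1.71 in WT (0.0605, and 0.0135 with the block). Cisd1 differed by -1.04 in KO (0.16) and -1.34 in WT (0.097, and 0.0386 with the block).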

How the data were processed

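Per the labels, total RNA of peritoneal macrophages was extracted with a mirVana kit and sequenced on an Illumina platform. The submitters' processing notes name bcl2fastq, TopHat2 2.0.14 (alignment), Cufflinks 2.2.1 (expression) and the build mm9. Annotation and strandedness are not stated there. The authors' deposited RPKM fill 1 table, whose 24192 lines cover 23735 loci, each used once. Read counts were not used, so depth was estimated from 3275 loci with low values, of which 85.1% held whole multiples of 1 step (tolerance 0.1 read plus 0.02 per read). The deepest library was set to 14.36 M reads (quartiles 13.6 and 14.8) from 735 genes with 1 transcript in GENCODE vM1 on the same build, which also gave gene positions and UTRs.

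The 11272 loci that reached 1 RPKM in 2 or more libraries were analysed as log2(RPKM + 1) in R 4.3.3 with limma 3.58.1, with 1 mean per group, variances that follow a trend with expression, two-sided tests and Benjamini-Hochberg adjustment over all loci. A left-out library leaves a lone one, which is assumed to vary like the other groups. The main fit had no term for the letter. Deviations from group means correlated by letter at r = 0.20 to 0.41 over 11272 loci in all 6 pairs of groups. A fit with the letter as a block was therefore made as an alternative. The members, lists and tests were chosen with earlier results of these data known. Besides the members, called iron genes and up to 2 per list with the largest LPS change were named. Alternatives were a pseudocount of 0.1, no filter, a filter at 5 RPKM, median-ratio scaling, quantile normalization, only the groups compared, and leaving out each library. Among the cell type markers, 1 gene is not reported here. The fit was tested on simulated data. Python 3.11.15, numpy 2.4.6, pandas 2.3.3, scipy 1.17.1, matplotlib 3.10.9 and blastn 2.17.0 were used.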

Additional observations from a re-analysis of the deposited data

Results flagged for a closer look

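Of the 61 other iron genes listed, those above the filter were compared by range. In 2 of them both LPS-treated libraries lay above both untreated ones in KO and below both in WT. Of all loci, 15.1% lay higher in KO and 45.9% lower in WT, and the share with both was not counted. Heph, which encodes the membrane ferroxidase hephaestin, stood at 1.58 and 2.40 RPKM in LPS-treated KO against 0.867 and 0.951 RPKM in untreated KO, and at 0.384 and 0.811 RPKM in LPS-treated WT against 0.933 and 2.64 RPKM in untreated WT. The response in KO minus that in WT was 1.38 on the log2 scale. Heph reached 1 RPKM only in the LPS-treated KO libraries and untreated WT library B. It was thus compared only because it was high there, and its pattern carries no weight. Alas1, the first enzyme of haem synthesis, stood at 50.2 and 37.6 RPKM in LPS-treated KO against 34.1 and 23.9 RPKM in untreated KO, and at 27.4 and 24.7 RPKM in LPS-treated WT against 28.0 and 62.7 RPKM in untreated WT. The difference of its responses was 1.26. In both genes the gap in WT rested mostly on untreated WT library B, the library with red cell transcripts, whose part was not tested. Limma called neither difference (adjusted p = 0.9999 for both).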

How the results depend on the processing

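With the letter as a block, limma called 3 members with LPS in KO (Lcn2, Slc11a2 and Steap4) in place of 1, and 1 in WT as before. Steap4 passed the filter only through LPS-treated libraries, so it carries no weight in this count or in the next ones. Without any 1 library 0 to 2 members were called in KO and 0 to 3 in WT. In the 4 other comparisons 0 members were called in all alternatives. Of the other iron genes, 3 were called in KO, against 13 with the block, 5 with quantile normalization and 0 to 7 without 1 library. In WT 4 were called, against 15 with the block, 2 without a filter, 2 with only the groups compared and 0 to 17 without 1 library. Where the block changed the call of a gene named here, its value stands beside it, and it changed no other call of a named gene. Over all loci the block gave 1611 calls in KO against 746, and 1818 in WT against 711. These counts were 262 and 270 without a filter, 894 and 994 with quantile normalization, and 352 in WT with only the groups compared. Leaving out 1 library moved them most without LPS-treated KO library B (17 higher and 3 lower in KO), LPS-treated WT library B (481 higher and 1073 lower in KO), untreated WT library A (6 higher and 1 lower in WT) and LPS-treated WT library A (519 higher and 1725 lower in WT). The difference in the Fth1 to Ftl1 ratio, a comparison chosen after seeing the data, was 0.833 in A libraries and 1.04 in B libraries (exact permutation p = 0.333, the smallest possible). Without any 1 library it was 0.821 to 1.12 (exact permutation p = 0.0571, again the smallest possible). Depth limits Steap4, which rests on 2 to 16 estimated reads in untreated libraries.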
